A study of Bos taurus with 21 samples.

Results

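Genes of antimicrobial proteins were examined in RNA-seq data from the somatic cells of the milk of 21 Holstein cows. The genes were taken by symbol from the count tables: LTF, LPO and PGLYRP1, together with every symbol that starts with CATHL. This gave 9 genes (LTF, LPO, PGLYRP1, CATHL1, CATHL2, CATHL3, CATHL4, CATHL5 and CATHL6) of 13570 gene rows. All 9 were among the 12333 genes that had any count. LCN2, the gene of lipocalin 2, was also looked for by symbol and was not analysed here. The cows fell into a high yielding group (HY, 9 cows) and a low yielding group (LY, 12 cows), and each cow gave 1 sample. Somatic cells of milk are a mixture of leukocytes and shed epithelial cells, and they were not sorted. The HY cows were of parity 2 to 4 and 41 to 268 days into lactation (median 168), and the LY cows were of parity 2 to 4 and 52 to 270 days into lactation (median 211.5). The breeding value of milk yield, for which no unit is given, was 181 to 468 in HY and -404 to 86.9 in LY. Cows are named below by group and number (HY1 to HY9, LY1 to LY12), and the numbers only name the animals.

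LTF encodes lactoferrin, an iron-binding glycoprotein, and LPO encodes lactoperoxidase, the peroxidase of milk. Both are secreted by the mammary epithelium, and lactoferrin is also stored in the secondary granules of neutrophils. PGLYRP1 encodes a peptidoglycan recognition protein of neutrophil granules. The CATHL genes encode cathelicidins, peptides that bovine neutrophils store as inactive precursors and release when they are activated. These granule proteins are made largely during maturation in the bone marrow, so that mature neutrophils can hold the protein with little of its RNA. In cattle the cathelicidin genes form a cluster. In the RefSeq table of assembly ARS-UCD2.0 it ran in the order CAMP, CATHL4, CATHL1, CATHL3, CATHL2, CATHL6 and CATHL5, with 0 to 2 other genes between neighbours, on the chromosome that also holds LTF. The cathelicidin genes resemble each other in the part that encodes the precursor, and the counting left out reads without a unique alignment (34.5 to 60.2 such alignments per 100 reads counted on genes). The counts of single CATHL genes are therefore uncertain.

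The depth was 7878557 to 28541904 counts on genes per cow. The share of counts on 7 milk protein genes, such as the casein genes CSN1S1, CSN2 and CSN3, ran from 0.118% in HY7 to 60.4% in HY8, with a median of 11.6%. HY8 and HY9 had the lowest normalization factors of the trimmed mean of M-values (TMM), 0.46 and 0.50, against up to 1.48 elsewhere. Their milk protein shares were 60.4% and 56.4%. Levels below are CPM scaled with these factors, so that every gene of a cow is multiplied by the same number, and results that rest on these 2 cows are also given without them. A count of 0 allows a level of up to 0.0826 to 0.589 CPM, depending on the cow, taken as 3 counts and covering counting error only. Genes of mature neutrophils were counted in every cow: S100A12 at 1053 to 5854 CPM, S100A9 at 206 to 3491 CPM and CXCR2, a chemokine receptor, at 127 to 3227 CPM. Genes of epithelial cells were also counted in every cow, with the keratin gene KRT19 at 6.61 to 2047 CPM.

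LTF was counted in all 21 cows, with 158510 reads in total. Its level was lowest in HY1 (15.3 CPM) and highest in HY8 (3675 CPM), with a median of 321 CPM. In HY the median was 117 CPM, and in LY it was 463 CPM with a range from 94.8 CPM (LY7) to 1562 CPM (LY10). The range of LY lay within that of HY, and both the lowest and the highest cow belonged to HY. LPO had 32466 reads in total, of which 13612 came from HY8. Its level ran from 0.375 CPM in HY7 (3 reads) to 1158 CPM in HY8, with a median of 45 CPM over all cows. The median was 12.5 CPM in HY and 46.3 CPM in LY, where levels lay between 1.66 CPM (LY12) and 265 CPM (LY2). PGLYRP1 was sparse, with 157 reads in 18 cows and 45 of them in LY12. Its highest levels were 2.02 CPM in LY12 and 1.60 CPM in HY6, and it had no read in HY2, HY5 and LY2.

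**Figure D1:**
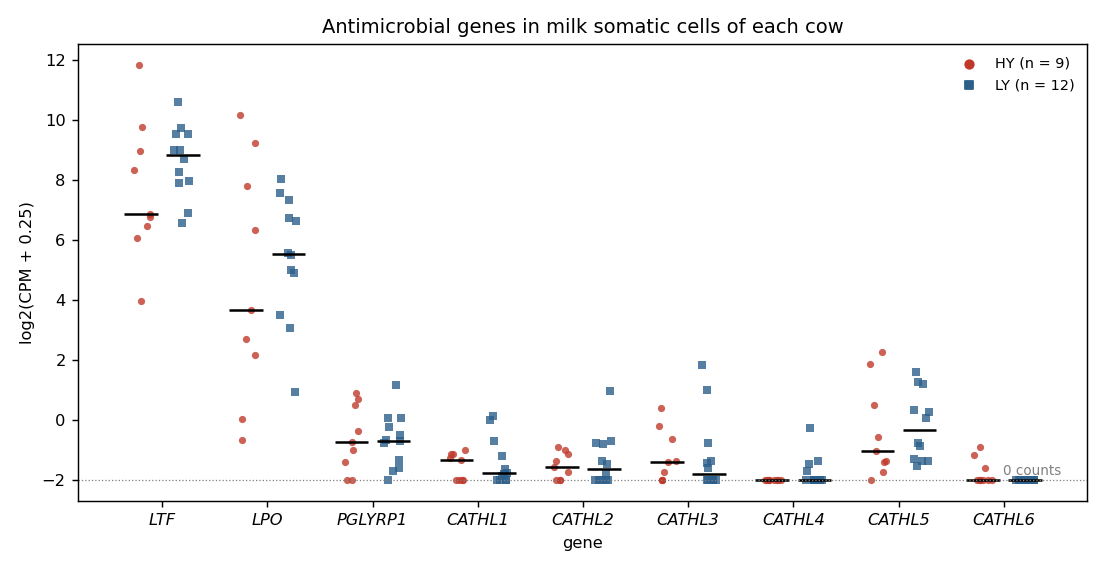
Level of each of the 9 genes in each cow, as log2(CPM + 0.25), with 9 HY cows (red circles) and 12 LY cows (blue squares); horizontal bars are group medians and the dotted line marks a count of 0. LTF and LPO were counted in all 21 cows, CATHL4 and CATHL6 in 4 and 3 cows, and levels of different genes are not comparable because they were not divided by gene length.

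Among the cathelicidin genes, CATHL5 was the one counted in most cows, with 228 reads in 20 cows and none in HY3. Its highest levels were 4.52 CPM in HY9 (23 reads), 3.40 CPM in HY8 (40 reads) and 2.76 CPM in LY10 (23 reads), and its median was 0.344 CPM. CATHL3, which encodes bactenecin 7, had 103 reads in 12 cows, led by LY12 (39 reads) and LY2 (29 reads). CATHL2, which encodes bactenecin 5, had 74 reads in 13 cows, of which 38 came from LY12 and 12 from LY9. CATHL1 had 52 reads in 13 cows, with 19 in LY12, 11 in LY4 and at most 3 in any other. CATHL4 had 18 reads in 4 LY cows, 13 of them in LY12. CATHL6 had 5 reads in all, 2 each in HY5 and HY6 and 1 in HY9. LY12 thus held the most reads of CATHL1, CATHL2, CATHL3, CATHL4 and PGLYRP1, while HY8 held the most reads of CATHL5, LPO and LTF. Both are deep libraries, with 22542235 and 25550423 counts on genes. In CPM, CATHL3 was highest in LY2 (3.32, against 1.75 in LY12) and CATHL5 in HY9. CAMP, the remaining gene of the cluster and no member of the set, had 16 reads, 8 in LY12, 7 in LY2 and 1 in LY10. A common filter on low counts (filterByExpr of edgeR) kept 3 of the 9 genes, LTF, LPO and CATHL5.

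To compare the genes with the cells of milk, 2 scores were computed for each cow as the mean log2(CPM + 0.25) over a list of marker genes. The epithelial list held 14 genes and the neutrophil list 11 genes with a count, and no member of the antimicrobial set was on either list. The epithelial score was 1.29 (HY1) to 6.14 (HY9), and the neutrophil score was 5.50 (HY9) to 9.29 (HY3). The epithelial and neutrophil scores were only weakly related over the 21 cows (Pearson r = -0.232). In such bulk samples, fewer cells of a type and less RNA per cell cannot be told apart.

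LTF, LPO and CATHL5 rose with the epithelial score. In the 5 cows of the lowest score (HY1, HY7, HY2, HY5 and LY7), LTF was at 15.3 to 108 CPM, LPO at 0.375 to 12.5 CPM and CATHL5 at 0.049 to 0.428 CPM. In the 5 cows of the highest score (LY2, LY8, LY10, HY8 and HY9), LTF was at 733 to 3675 CPM, LPO at 162 to 1158 CPM and CATHL5 at 2.08 to 4.52 CPM. These ends did not overlap for any of the 3 genes, but the share of all genes without such overlap was not computed. PGLYRP1, CATHL1, CATHL2 and CATHL3 overlapped between the ends, each with at least 1 cow at 0 in both. With 52 to 157 reads per gene in all cows together, their overlap cannot tell low depth from a different relation. The quasi-likelihood test of edgeR over all 12333 genes called 3 of the 9 genes higher with the epithelial score and none lower. Of all genes tested, 12.2% were called higher and 8.27% lower (20.5% in either direction).

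Per unit of the epithelial score, LPO rose by 1.97 on the log2 scale (SE 0.19, adjusted P-value = 2.24e-08). LTF rose by 1.25 (SE 0.13, adjusted P-value = 1.24e-07) and CATHL5 by 1.20 (SE 0.18, adjusted P-value = 2.25e-05). The change was 0.50 for PGLYRP1 (SE 0.27, adjusted P-value = 0.203), 0.38 for CATHL3 (SE 0.44), -0.08 for CATHL1 (SE 0.36) and -0.08 for CATHL2 (SE 0.43), and none of these passed the test. LTF, LPO and CATHL5 were called without any 1 cow and under all 7 other settings, which included the neutrophil score as a covariate and the 19 cows without HY8 and HY9. Over all genes the median change was -0.03.

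**Figure D2:**
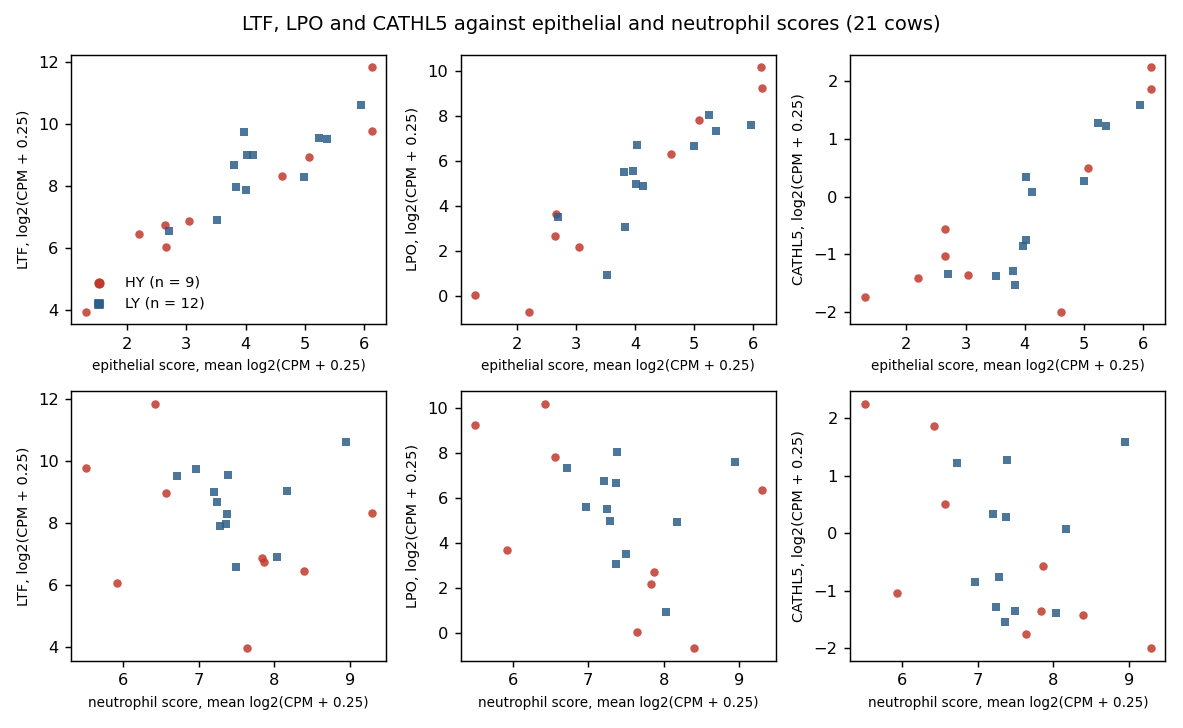
LTF, LPO and CATHL5 in each cow, as log2(CPM + 0.25), against the epithelial score (upper row) and the neutrophil score (lower row), both as mean log2(CPM + 0.25) over their lists; circles are 9 HY cows and squares 12 LY cows. All 3 genes rise from left to right in the upper row, with Pearson r of 0.915, 0.916 and 0.820. Against the neutrophil score LPO and CATHL5 had r of -0.392 and -0.422, which did not pass adjustment. Without HY8 and HY9 these values were -0.177 and -0.151. They were -0.525 and -0.763 within HY, and -0.12 and 0.21 within LY.

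The same relations were seen in log2 levels. With the epithelial score, Pearson r was 0.916 for LPO (Spearman rho = 0.926), 0.915 for LTF (rho = 0.896) and 0.820 for CATHL5 (rho = 0.782). The two-sided permutation P-value of each r was 1e-05, the smallest that 100000 resamples can give, and the adjusted P-value over 92 relations was 0.000184. Without HY1 and HY9, the cows farthest from the median score, r was 0.889, 0.897 and 0.788. Within HY r was 0.968, 0.956 and 0.806, and within LY it was 0.778, 0.795 and 0.895, in the same order of genes. The study's mapping rates split the cows into 16 of lower rate (8 HY, 8 LY) and 5 of higher rate (1 HY, 4 LY). Leaving out the 5 thus also changes the balance of the groups and removes LY12. Within the 16 r was 0.940, 0.932 and 0.829, while the set of 5 was too small. For PGLYRP1 r was 0.481 (permutation P-value = 0.0281, adjusted 0.136), with 0.843 within HY and -0.067 within LY, and the difference between the groups was not tested.

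LPO followed the milk protein genes closely. With the mean level of 7 milk protein genes, r was 0.983 for LPO (rho = 0.982), 0.820 for LTF and 0.781 for CATHL5 (permutation P-value = 1e-05, 1e-05 and 8e-05; adjusted 0.000184, 0.000184 and 0.00123). Without HY7 and HY1, the cows farthest from the median, r was 0.973, 0.769 and 0.774, and within the 16 cows 0.985, 0.835 and 0.784. Of the 9367 genes with at least 10 counts in at least 11 cows, those most like LPO over the 21 cows were PAEP (r = 0.985), the gene of beta-lactoglobulin, GLYCAM1 (r = 0.980), a mucin-like milk protein gene, and C3H1orf210 (r = 0.980). The genes most like LTF were EPCAM (r = 0.930), the epithelial cell adhesion molecule and itself on the epithelial list, MAL2 (r = 0.913) and CYR61 (r = 0.906). Those most like CATHL5 were C1QTNF5 (r = 0.926), NXN (r = 0.920) and SPINK4 (r = 0.913). LTF and LPO were themselves correlated with r = 0.876, and CATHL5 with LPO at 0.808 and with LTF at 0.759.

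LPO also changed more steeply than LTF. The difference of the 2 genes on the log2 scale rose with the epithelial score (r = 0.659, rho = 0.720, permutation P-value = 0.00118, adjusted 0.0121). Without HY1 and HY9 r was 0.649, within the 16 cows it was 0.693, and it was 0.770 within HY and 0.515 within LY. In LY9, for example, LTF was at 849 CPM, the fourth highest level, while LPO was at 47.7 CPM, near its median. This comparison was chosen after the values were seen.

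The epithelial score did not move alone. Of 10 macrophage genes with a count, 5 fell with it and none rose (median change -0.35), against 8.27% and 12.2% of all genes. LPO was negatively correlated with the macrophage score (r = -0.569, permutation P-value = 0.00738, adjusted 0.0485). The rho of -0.539 did not pass adjustment (permutation P-value = 0.0134, adjusted 0.0724). Without LY5 and HY1 r was -0.463, within the 16 cows -0.580, within HY -0.510 and within LY -0.722. This macrophage list summed to 1465 to 8325 CPM in HY and 2260 to 7315 CPM in LY. Its part in the relations of LTF, LPO and CATHL5 was not tested.

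With the neutrophil score 2 of the 9 genes were called. CATHL1 was the only member called higher, by 1.67 on the log2 scale per unit of the score (SE 0.50, adjusted P-value = 0.0336), and CATHL6 was the only one called lower. Of all genes tested by edgeR, 6.45% were called higher and 3.7% lower (10.2% in either direction). CATHL6 rests on 5 reads in HY5, HY6 and HY9, which were 3 of the 4 cows with the lowest neutrophil score (5.50 to 6.57). For CATHL2 the change was 1.29 (SE 0.56, adjusted P-value = 0.145) and for CATHL3 1.02 (SE 0.66, adjusted P-value = 0.36). For LPO it was -0.87 (SE 0.41, adjusted P-value = 0.188), for CATHL5 -0.58 (SE 0.35, adjusted P-value = 0.33), for LTF -0.36 (SE 0.31) and for PGLYRP1 -0.15 (SE 0.40). Without HY8 and HY9 the changes were -0.19 for LPO, -0.056 for CATHL5, 0.17 for LTF and 0.31 for PGLYRP1. With a score over the 8 counted genes of neutrophil granules, LTF had r = 0.467 (rho = 0.439, permutation P-value = 0.0328, adjusted 0.144), with 0.488 without HY6 and HY8, 0.608 within the 16 cows, 0.465 within HY and 0.309 within LY.

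The call of CATHL1 was not stable. It was lost without HY5, HY6, HY9, LY4, LY8, LY9 or LY12, with a highest adjusted P-value of 0.0871 and a lowest change of 1.37, and held without each of the other 14 cows. It was also lost among the 16 cows of lower mapping rate (change 1.30), a set without LY12. With group and lactation period as covariates it was lost too (1.82). DESeq2 called CATHL1 and no other member, and gave no adjusted P-value for 2 of the 9. CATHL5 was called lower without LY10 (change -1.47, adjusted P-value = 0.0161), the cow that combined a neutrophil score of 8.94 with 23 reads of CATHL5.

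**Figure D3:**
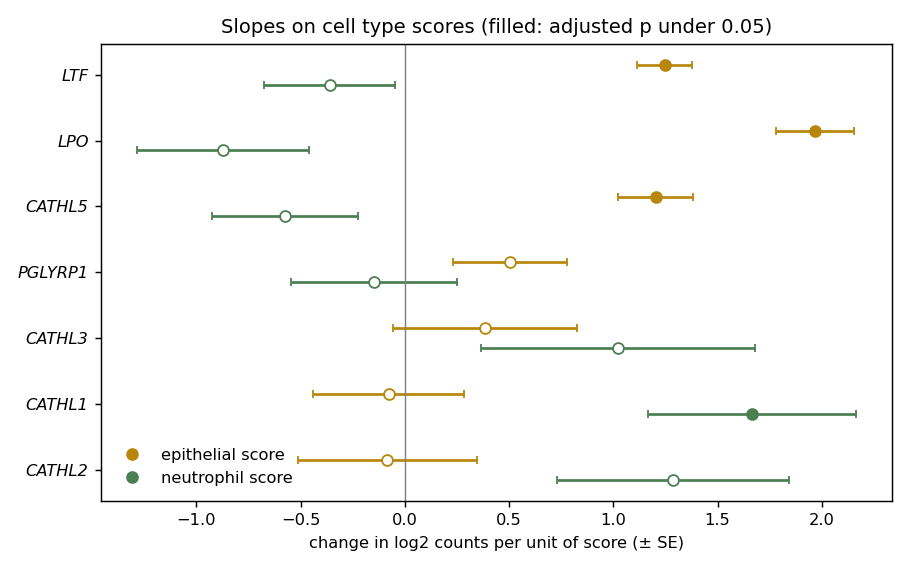
Change of 7 genes per unit of the epithelial score (brown) and of the neutrophil score (green), in log2 counts with bars of ± 1 SE from the quasi-likelihood fit over 21 cows; filled points had an adjusted P-value under 0.05. LPO, LTF and CATHL5 lie at 1.97, 1.25 and 1.20 for the epithelial score, whereas CATHL1 lies at 1.67 for the neutrophil score and at -0.08 for the epithelial score.

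In log2 levels, CATHL1 had r = 0.601 with the neutrophil score (permutation P-value = 0.00418, adjusted 0.0353) and rho = 0.718. Without HY3 and HY9 r was 0.626, within the 16 cows 0.674, within HY 0.675 and within LY 0.763. CATHL3 had r = 0.390 (adjusted P-value = 0.273) and rho = 0.634 (adjusted permutation P-value = 0.02), and CATHL2 r = 0.455 (adjusted 0.167). These values rest on 52 to 103 reads per gene with 8 or 9 cows at 0. CATHL1 and CATHL2 were correlated with each other (r = 0.700), while CATHL5 was not positively correlated with CATHL1, CATHL2 or CATHL3 (r = -0.215, -0.158 and -0.022). The genes most like CATHL1 over the 21 cows were UBTD1 (r = 0.880), FLOT2 (r = 0.879) and SGTA (r = 0.878). GRASP (r = 0.854) was most like CATHL2, and TCIRG1 (r = 0.862) most like CATHL3. None of these genes is on the neutrophil list.

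CATHL5 was compared with CATHL1, CATHL2 and CATHL3 directly, while CATHL4, CATHL6 and CAMP, with 18, 5 and 16 reads, were not. The log2 difference of CATHL5 and CATHL1 rose with the epithelial score (r = 0.718, permutation P-value = 0.00028, adjusted 0.00368) and fell with the neutrophil score (r = -0.597, adjusted 0.0353), with r of -0.827 within HY, -0.245 within LY and -0.404 without HY3 and HY9. With the neutrophil score, the difference from CATHL2 did not pass adjustment (r = -0.554, adjusted permutation P-value = 0.0593) and that from CATHL3 did (r = -0.568, adjusted 0.0485), with -0.340 and -0.386 without HY3 and HY9. The differences of CATHL5 from CATHL2 and from CATHL3 had r of 0.678 and 0.585 with the epithelial score (adjusted permutation P-value = 0.00874 and 0.0414). Without HY1 and HY9 the 3 values were 0.655, 0.631 and 0.566, and within the 16 cows 0.766, 0.755 and 0.604. They were between 0.591 and 0.749 in LY and between 0.606 and 0.747 in HY. These 3 differences were also chosen after the values were seen, and they share CATHL5. With the epithelial score CATHL5 alone had r = 0.820, and CATHL1, CATHL2 and CATHL3 had -0.096, -0.009 and 0.055. The median count of each of the latter was 1. The differences therefore largely repeat the relation of CATHL5 with this score and are no separate support for it.

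**Figure D4:**
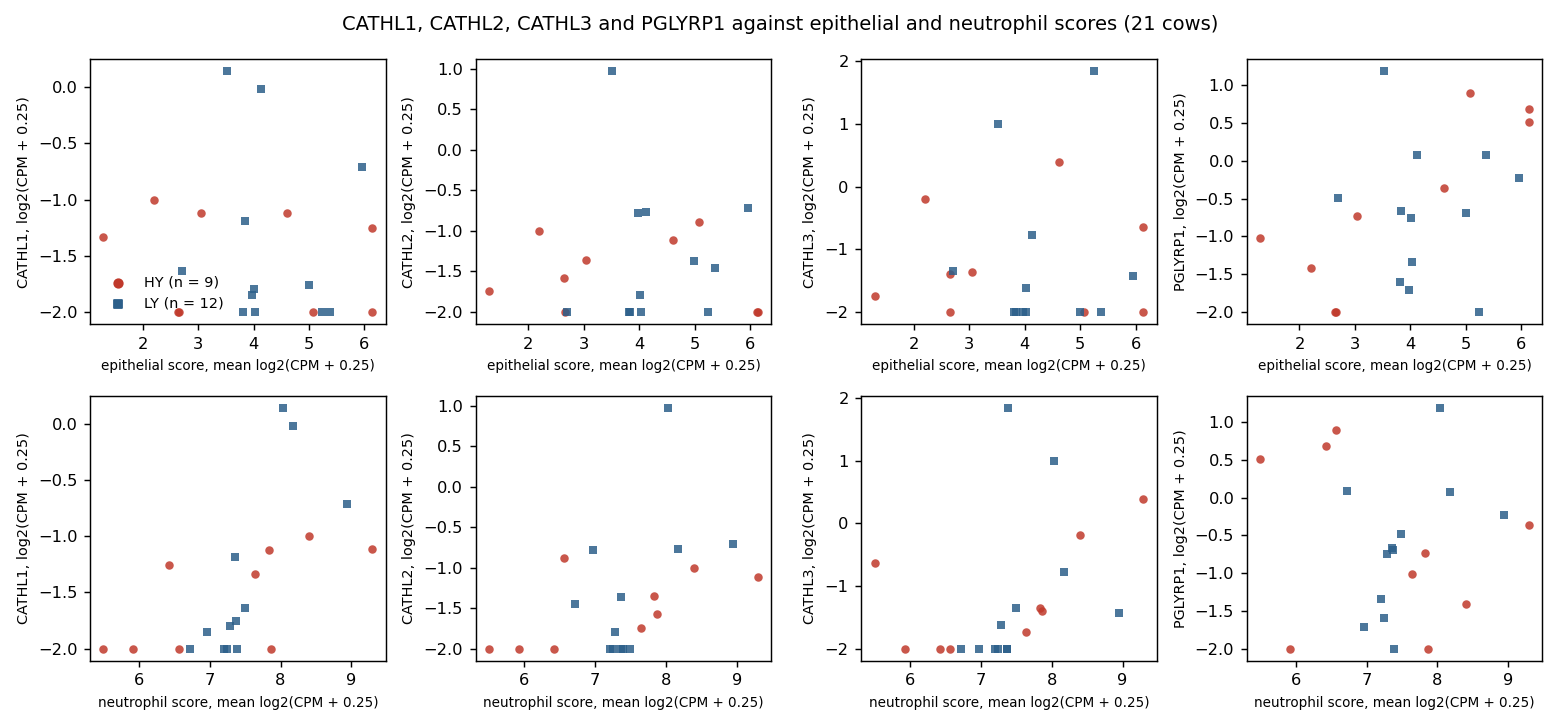
CATHL1, CATHL2, CATHL3 and PGLYRP1 in each cow, as log2(CPM + 0.25), against the epithelial score (upper row) and the neutrophil score (lower row); circles are 9 HY cows and squares 12 LY cows, and points at -2 had no read. CATHL1 had 8 cows at 0, and its r was 0.601 with the neutrophil score and -0.096 with the epithelial score.

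Other genes of host defence were placed beside these members. From a list of 40 such genes, 32 had a count. With the epithelial score 8 of them rose and 3 fell in edgeR (median change 0.12), against 12.2% and 8.27% of all genes. Whether the list differs from these shares was not tested. Without HY8 and HY9, 6 rose and 3 fell. In all cows, those that rose included MUC1 (1.87), a membrane mucin, PIGR (1.65), the receptor that carries immunoglobulin A into milk, LBP (1.02), the lipopolysaccharide-binding protein, ANG (0.91), RNASE4 (0.65) and XDH (0.74), the xanthine dehydrogenase of the milk fat globule membrane. CD14 (-0.47), GNLY (-0.96) and NOS2 (-1.05) fell. LYZ, the gene of lysozyme, was at 310 to 2755 CPM and did not pass the test (-0.16, adjusted P-value = 0.357). Apart from XDH and LYZ, the genes of this paragraph were named after their values were seen.

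Of the same 32 genes, 4 rose with the neutrophil score and 1 fell (median change 0.12), against 6.45% and 3.7% of all genes. Whether the list differs from these shares was not tested. Without HY8 and HY9, 2 rose and 0 fell. S100A8 (0.86) and S100A9 (1.02) were among the 4, but both are also on the neutrophil list from which the score was made. The others were DEFB10 (1.69), a beta-defensin, and RNASE6 (0.56), and the gene that fell was ANG (-0.84). S100A12 is on both lists as well and was not called with the neutrophil score. Of 8 genes of neutrophil granules with a count, 2 rose with the neutrophil score, against 6.45% of all genes. These were CHI3L1 (0.74, adjusted P-value = 0.000348) and ELANE (1.26, adjusted P-value = 0.0082), the gene of neutrophil elastase. BPI and HP, which belong to these 8, were also among the 32 genes above. With the epithelial score 1 of the 8 rose, CRISP3 (1.14, adjusted P-value = 0.0115), against 12.2% of all genes. MPO, the gene of myeloperoxidase, was at 0.106 to 7.30 CPM. DEFB10, RNASE6, ELANE, MPO, S100A8 and ANG were named after their values were seen.

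Between HY and LY no member was called (0 of 9 in edgeR, with 0% of all genes called). DESeq2 also called 0 of the 9 and 1 gene in all. At an unadjusted P-value under 0.05 edgeR gave 2 members, against 4.7% of all genes. These were CATHL4 (P-value = 0.0132), whose 18 reads were all in LY, and CATHL6 (P-value = 0.00977), whose 5 reads were all in HY. For both the adjusted P-value was 0.999. The difference of HY from LY was 1.48 for LPO on the log2 scale (SE 0.98, P-value = 0.143), 0.27 for LTF (SE 0.68), 0.27 for CATHL5 (SE 0.80) and 0.17 for PGLYRP1 (SE 0.78).

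The sign of these differences was not stable. The mean log2 level of LTF was 7.67 in the 9 HY cows (SD 2.32) and 8.64 in the 12 LY cows (SD 1.18), the opposite order of the fitted difference, which follows the mean count. The order was also opposite for LPO, with means of 4.61 in HY (SD 3.95) and 5.40 in LY (SD 2.09), and for CATHL5, with -0.39 (SD 1.57) and -0.20 (SD 1.14). Without HY8 the fitted difference of LTF was -0.995 (P-value = 0.108). Without HY8 and HY9, a choice made after the data were seen, it was -1.55 (SE 0.57, P-value = 0.0129, adjusted 0.845 in edgeR), and that of LPO was -0.76 (SE 0.95) and that of CATHL5 -1.55 (SE 0.80). With both cows kept, CATHL5 differed by -0.14 among the 16 cows of lower mapping rate, and with parity and lactation period as covariates CATHL5 differed by -0.25 and LTF by -0.31. PGLYRP1 differed by -0.21 without HY6. Of the 14 epithelial genes, 0 were called between the groups by edgeR in either set of cows, and their median difference was -0.03 in all cows and -0.94 without HY8 and HY9. For the 7 milk protein genes, also with 0 called, it was 1.06 and -0.58.

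With the lactation period none of the 9 genes was called by edgeR, where 0.0243% of all genes, or 3 genes, were called. At an unadjusted P-value under 0.05 there were 2 members, against 22.3% of all genes. LPO changed by -1.32 per 100 days on the log2 scale (SE 0.56, P-value = 0.0268, adjusted 0.171) and LTF by -0.78 (SE 0.37, P-value = 0.0482, adjusted 0.22). CATHL5 changed by -0.84 (SE 0.48, adjusted 0.298). DESeq2 called 920 genes and 0 members, with no adjusted P-value for 7 of them. Without HY8 and HY9, which were at 65 and 108 days, the changes were -0.47, -0.23 and -0.37 per 100 days. In log2 levels, r with lactation period was -0.202 for LPO, -0.213 for LTF and -0.335 for CATHL5 (permutation P-value = 0.376, 0.356 and 0.137). HY1, at 41 days the earliest cow, had the lowest LTF level of all, and without HY1 and LY9 these values were -0.418, -0.496 and -0.560. Within the 16 cows of lower mapping rate they were -0.126, -0.071 and -0.320.

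When the 8 cows up to 110 days were compared with the 13 later ones, edgeR called 655 genes and again 0 members. The later cows differed by -2.70 in LPO (adjusted P-value = 0.065). The relation with lactation period was not found to differ between HY and LY for any member, with 0 of 9 called and 0% of all genes. At an unadjusted P-value under 0.05 there was 1 member, CATHL5 (P-value = 0.0499), and 322 of 12333 genes in all. The neutrophil score had r = 0.434 and the epithelial score r = -0.177 with lactation period.

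**Figure D5:**
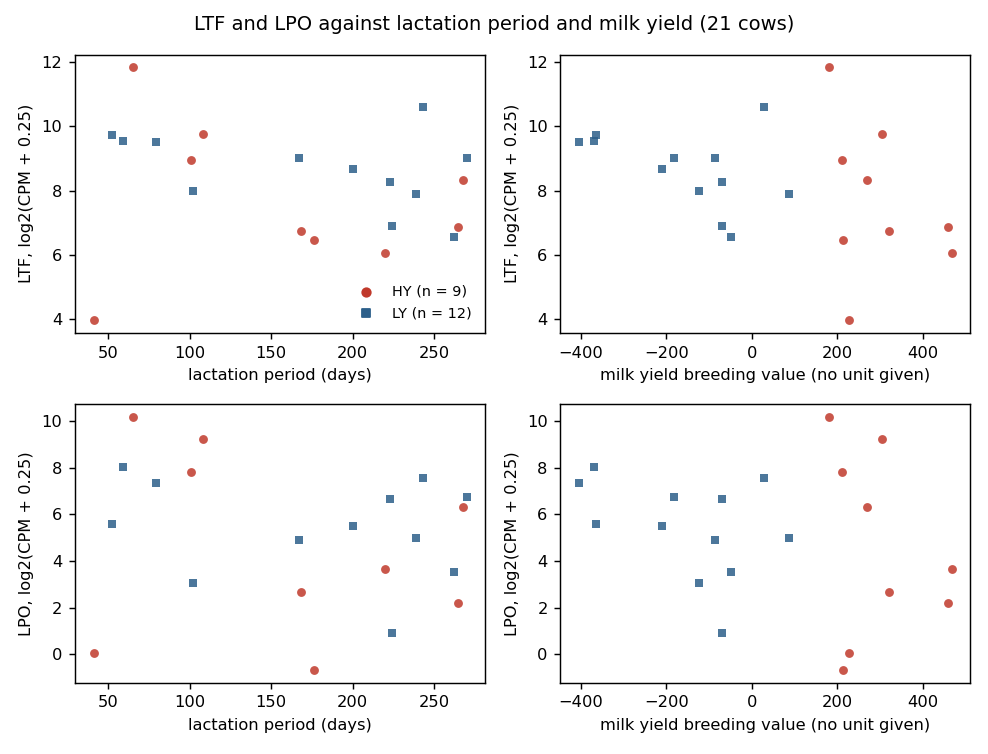
LTF (upper row) and LPO (lower row) in each cow, as log2(CPM + 0.25), against lactation period in days (left) and the breeding value of milk yield, without a unit (right); circles are 9 HY cows and squares 12 LY cows. No relation passed adjustment, and r with milk yield was -0.402 for LTF and -0.256 for LPO.

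With the milk traits, the regression of each trait on log2(CPM + 0.25) called none of the 9 genes for milk yield, fat, protein or solid, and 0% of all genes in each. At an unadjusted P-value under 0.05 there were 0 members for each trait, against 2.49%, 2.3%, 2.3% and 1.65% of all genes. By edgeR with the trait as covariate, 0 members were called for each trait, with 2, 1, 1 and 1 members at an unadjusted P-value under 0.05, against 456, 354, 342 and 386 of 12333 genes. These members were CATHL6 for every trait and CATHL4 for milk yield, whose 5 and 18 reads lay only in HY and only in LY. LTF had the most negative r among the 7 genes counted in at least 11 cows, -0.402 with milk yield (rho = -0.462, permutation P-value = 0.0721, adjusted 0.255). For fat r was -0.377, for protein -0.375 and for solid -0.217. Within HY and LY, r of LTF with milk yield was -0.338 and -0.420, within the 16 cows of lower mapping rate -0.397, and without HY5 and LY8 -0.299. Without HY8 and HY9 it was -0.619, and the regression gave an adjusted P-value of 0.679. For LPO, r with milk yield was -0.256 in all cows (permutation P-value = 0.261) and -0.468 without both cows. For CATHL5 it was -0.188 in all cows and -0.443 without both, and in all cows for CATHL1, CATHL2, CATHL3 and PGLYRP1 it lay between -0.075 and 0.073. The epithelial score itself had r = -0.284 with milk yield.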

How the data were processed

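RNA was extracted from milk somatic cells of 21 Holstein cows (9 HY, 12 LY), 1 sample per cow. The authors trimmed paired reads with Trimmomatic, mapped them to bosTau7 with Bowtie2 within TopHat2, converted the alignments with SAMtools and deposited HTSeq counts per gene, without normalization. Versions and the strand setting of the counting are not given in the sources used here. The 5 summary rows of HTSeq and a row named null (0.036% to 0.151% of counts) were left out. Groups, parity, lactation period and traits came from the labels.

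Counts of the 12333 genes that had any count were tested with the quasi-likelihood test of edgeR 4.0.16 (R 4.3.3, TMM factors) for group, lactation period, each score and the interaction of group and lactation period. Traits were regressed on log2(TMM-normalized CPM + 0.25), after the simple regression of the study. P-values were adjusted over all genes by Benjamini-Hochberg, with calls at 0.05. Relations of the 7 members counted in at least 11 cows used two-sided permutation tests with 100000 resamples, adjusted over 92 relations. Each of the 210 pairs of cows showed differences beyond sampling noise (lowest chi-square per degree of freedom 37.9). The scripts were tested on simulated counts, with changes by group or lactation period placed in well-counted genes only. Recovery of changes in sparsely counted genes, or in fits on the scores, was not tested.

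Other settings were DESeq2 1.42.0 and its size factors, filters on low counts, pseudocount 1, covariates, the 16 cows of lower mapping rate, each cow left out and, chosen after seeing the data, the 19 cows without HY8 and HY9. Named were every member, the 3 genes most like each by Pearson r and the 3 genes of highest median CPM of each list, of which the text gives a part, with others marked as named after their values were seen. Members and gene lists were chosen with earlier results of these data known. Neighbours came from RefSeq (ARS-UCD2.0), and no coordinates are given because the builds differ.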

Additional observations from a re-analysis of the deposited data

How the results depend on the processing

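No paired analysis was possible because every cow is a separate animal and the labels carry no replicate numbers shared between HY and LY. Over 31 results, 165 of 187 values under the other settings and 631 of 651 with 1 cow left out kept their direction and their side of the threshold. Of these results, only those of 2 members with the neutrophil score and 3 with the epithelial score were called in the main fit. The others count as kept when they stayed uncalled with the same sign, which is no sign of a stable relation. Fits without an adjusted P-value were left out. The 3 members called with the epithelial score were called throughout. The number called with the neutrophil score, 2, was 0 with filterByExpr, which tested 3 members only, 1 by DESeq2, 1 among the 16 cows of lower mapping rate, 0 with group and lactation period as covariates, and 1 to 3 with 1 cow left out; apart from the filter, the cause was not tested.

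The following changes turned their direction, none of them past the threshold in either direction, and the cause was not tested. Without HY8 and HY9, the difference of HY from LY was -1.55 for CATHL5, -1.55 for LTF, -0.76 for LPO and -0.42 for PGLYRP1, the change with the neutrophil score 0.17 for LTF and 0.31 for PGLYRP1, and that with the epithelial score 0.19 for CATHL2. Among the 16 cows CATHL5 differed by -0.14 between groups and CATHL2 changed by 0.15 with the epithelial score. With parity and lactation period as covariates, the group difference was -0.25 for CATHL5 and -0.31 for LTF. With group and lactation period, LTF changed by 0.12 with the neutrophil score. With the other score as covariate, PGLYRP1 changed by 0.25 with the neutrophil score, and CATHL1 by 0.0681 and CATHL2 by 0.12 with the epithelial score. Fitted by edgeR, LPO changed by 0.28, 0.70, 0.39 and 0.33 per SD of milk yield, fat, protein and solid. With 1 cow left out, the group difference ran from -0.39 to 0.51 for CATHL5, from -0.995 to 0.503 for LTF and from -0.21 to 0.63 for PGLYRP1. The change with the neutrophil score ran from -0.80 to 0.0043 for LTF and from -0.30 to 0.0022 for PGLYRP1, and that with the epithelial score from -0.247 to 0.0246 for CATHL1, from -0.26 to 0.22 for CATHL2 and from -0.15 to 0.57 for CATHL3.

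The number of genes called with lactation period, 3, was 920 by DESeq2, 655 for cows up to 110 days against later ones, and 0 with filterByExpr, among the 16 cows and with group as covariate. With the epithelial score it went from 2524 to 1618 among the 16 cows and 1305 without HY8 and HY9, and with the neutrophil score from 1252 to 824 and 769. With 1 cow left out these numbers ran from 0 to 428 for lactation period, from 1767 to 2741 for the epithelial and from 692 to 1501 for the neutrophil score. With milk yield and milk solid it went from 0 to 13 and 4 by edgeR. Depth limits CATHL1, CATHL2, CATHL3, CATHL4, CATHL6 and PGLYRP1, with 5 to 157 reads in all cows together, so that differences within the counting error of so few reads were not detectable at this depth.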
